A study of Rattus norvegicus with 6 samples.

Results

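The hippocampus borders the thalamus below and lies near the striatum in front, so RNA of a hippocampal dissection can carry transcripts of both neighbours. The markers described here are 9 of the 17847 genes named on the arrays, 5 of them thalamic (Tcf7l2, Prkcd, Lef1, Ramp3 and Zic1) and 4 striatal (Drd2, Adora2a, Ppp1r1b and Pde10a). They were chosen by name, as every non-control probe that carries the symbol of a member or an alias of it. All 9 were found, at 14 probes of 60 bases. Some of them, such as Ppp1r1b and Pde10a, are also expressed by hippocampal cells. In these bulk samples a share of cells and an amount of RNA per cell cannot be told apart.

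Each of the 6 arrays held pooled hippocampal RNA of male rats whose strain the labels spell Wister or Wistar. The control array is labelled 12 weeks of age. The other 5 arrays came from rats in which both common carotid arteries had been permanently tied off, an operation called BCCAo that lowers blood flow to the forebrain. They were taken at day 21 (labelled 13 weeks), day 35 (14 weeks), day 45 (15 weeks), day 55 (16 weeks) and day 70 (17 weeks), and these ages do not advance as the days do. Neither the size of a pool nor any sham surgery of the control rats is stated in the sources used here. The control, day 21 and day 35 arrays shared 1 slide and the day 45, 55 and 70 arrays the other. The occlusion and the slide therefore cannot be told apart when day 45, 55 or 70 is set against the control.

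With 1 array per group there is no spread between animals, no test and no p-value. Levels are given as a percentage of the 75th percentile of the array's signal, which was 1239.63 to 1500.37 intensity units, and are compared only within a probe. A difference is the log2 level at a given day minus that of the control array, so that 1 unit is 2-fold, and genes that differ by 2-fold or more are counted. For the 5 members whose probe was printed 10 times, the SD between spots gives the error within an array. For the 4 members read from 1 spot, the SD of a difference was taken from repeated probes of like signal. Both cover spot error only, and neither covers animals, pooling or labelling. Each array had 12875 to 13971 genes well above background, and the median difference from the control over all genes lay between -0.07 and -0.04.

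The thalamus relays sensory and motor signals to the cortex. Its relay neurons are known for transcription factors of the Wnt pathway, Tcf7l2 and Lef1, and for the kinase gene Prkcd, while Zic1, a zinc-finger transcription factor, marks part of the medial thalamus and also the septum, the cerebellum and the meninges. The striatum consists mostly of medium spiny neurons, which read dopamine through cyclic AMP. Its indirect-pathway neurons carry the D2 dopamine receptor (Drd2) and the adenosine receptor encoded by Adora2a, and nearly all of its neurons carry DARPP-32 (Ppp1r1b), a phosphatase inhibitor switched by cyclic AMP, and the phosphodiesterase PDE10A (Pde10a), which breaks cyclic nucleotides down.

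The probes on which the results turn are printed 5′ to 3′ as the array files give them, with coordinates in build rn4. Whether a probe lies in a coding part or a UTR is not stated in the sources used here. Prkcd and Zic1 hold the only 2-fold differences at a brightest probe, and Tcf7l2 was listed in the files as LOC679869 and named through its gene identifier. The Prkcd probe lies at chr16:5954516-5954575 on the minus strand, that of Zic1 at chr8:96317434-96317493 on the minus strand and that of Tcf7l2 at chr1:262226651-262226710 on the plus strand.
Prkcd: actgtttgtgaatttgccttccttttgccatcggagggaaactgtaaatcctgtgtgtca
Zic1: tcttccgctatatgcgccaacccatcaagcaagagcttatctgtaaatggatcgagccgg
Tcf7l2: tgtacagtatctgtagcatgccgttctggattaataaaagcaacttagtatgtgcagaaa

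Lef1 and Drd2 are shown because their probes disagreed. The brightest Lef1 probe, A_64_P052010, lies at chr2:228668698-228668757 on the plus strand. Both others lie 8968 bases or a little less before it, A_64_P166158 at chr2:228659730-228659789 and A_64_P052007 at chr2:228659738-228659797, and they share 52 bases. Within that overlap they differ at 4 bases, shown in capitals in both. Counted from the 5′ end of A_64_P052007, with its base first, these are G11A, T32C, T38G and G44C. The Drd2 probes lie on the plus strand 1137 bases apart, A_42_P625922 at chr8:52707670-52707729 and A_44_P121351 at chr8:52706533-52706592.
Lef1 A_64_P052010: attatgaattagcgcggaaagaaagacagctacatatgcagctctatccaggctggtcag
Lef1 A_64_P166158: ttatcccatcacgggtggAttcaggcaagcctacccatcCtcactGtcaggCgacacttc
Lef1 A_64_P052007: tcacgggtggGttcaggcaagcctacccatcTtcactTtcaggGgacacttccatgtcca
Drd2 A_42_P625922: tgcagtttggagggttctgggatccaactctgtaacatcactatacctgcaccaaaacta
Drd2 A_44_P121351: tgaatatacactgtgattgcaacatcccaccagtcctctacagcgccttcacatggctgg

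Over the 6 arrays the thalamic markers ranged over 0.38 to 1.47 log2 units and the striatal ones over 0.23 to 0.55, and the thalamic markers did not peak on the same array. Prkcd stood 2.35-fold above the control at day 21, and Zic1 stood 2.18-fold above it at day 35 and 2.11-fold at day 55. Tcf7l2, Lef1 and Ramp3 stayed within 2-fold of the control at all 5 days, at the brightest probe of each. No striatal marker differed 2-fold from the control at its brightest probe on any day. At day 21, 1 of 9 members was at least 2-fold higher, beside 3.58% of the 14194 genes compared, and none was 2-fold lower, beside 1.87%. At day 35 it was 1 of 9 higher beside 0.472% of genes and none lower beside 1.12%, and at day 55 again 1 of 9 higher beside 0.646% and none lower beside 4.96%. At day 45 none of the 9 was 2-fold higher (0.585% of genes) or lower (5.86%), and at day 70 none was higher (0.672%) or lower (6.84%).

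**Figure D1:**
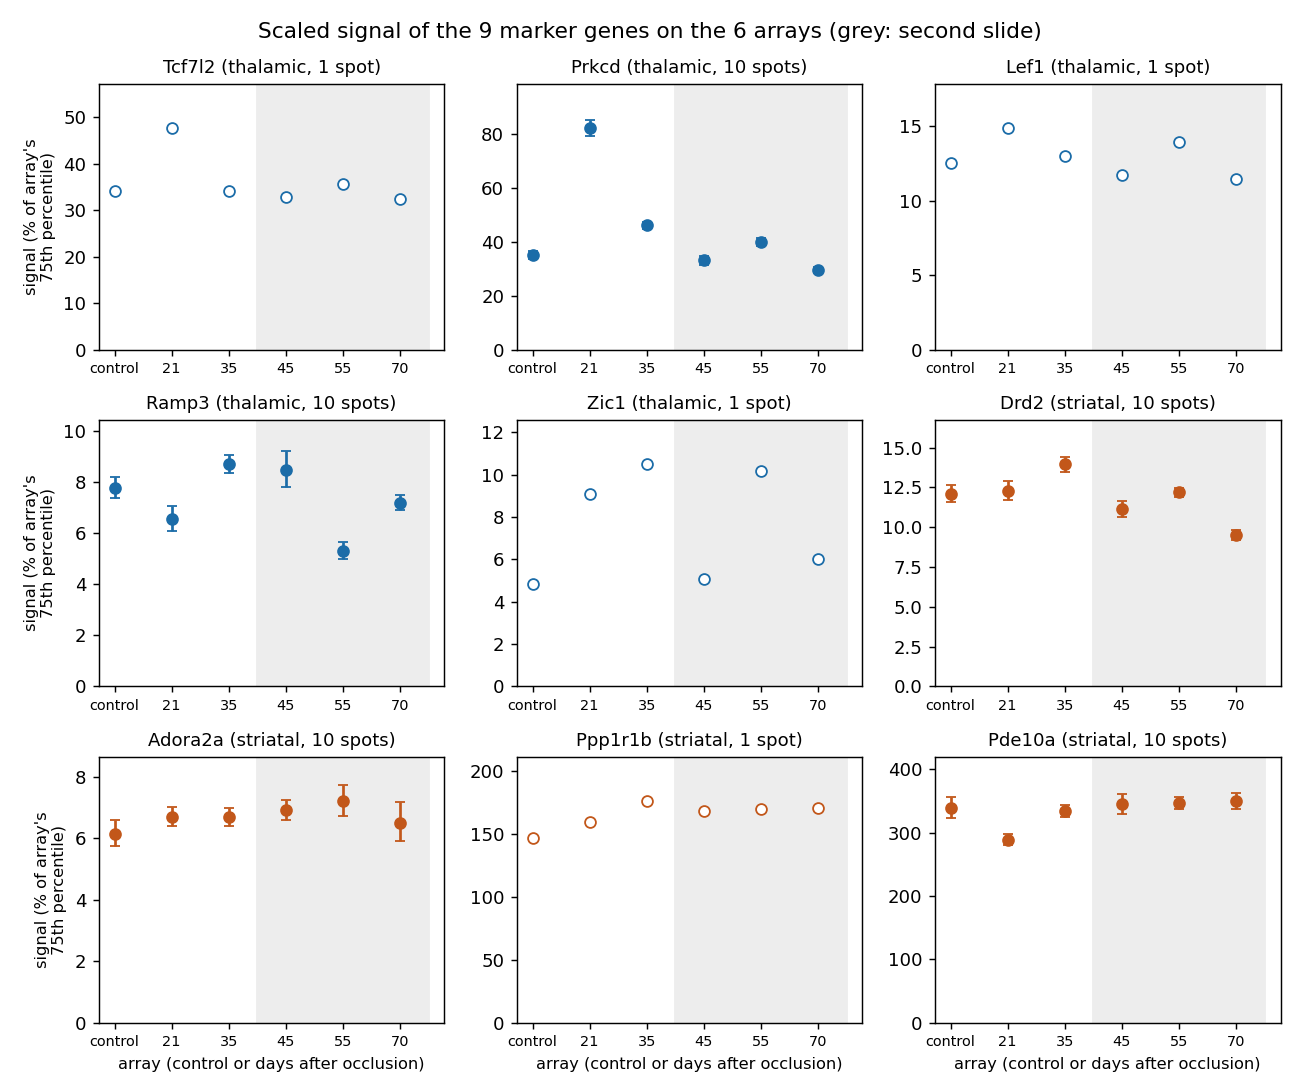
Scaled signal (vertical axis, percentage of the array's 75th percentile, from 0) of the 9 marker genes on the 6 arrays (horizontal axis, control or days after occlusion), thalamic in blue and striatal in orange. Filled points are means of up to 10 spots with the SD between spots, open points are single spots without an error bar, and grey marks the arrays of the other slide. Prkcd is highest at day 21, at 82.4%, and Zic1 lies between 9.08 and 10.5% at days 21, 35 and 55 and between 4.81 and 6.01% on the other 3 arrays.

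Prkcd encodes protein kinase C delta, which is strong in thalamic relay neurons and is also present in myeloid cells such as microglia and macrophages. Its scaled signal was 35.1% on the control array, 82.4% at day 21, 46.2% at day 35, 33.2% at day 45, 39.9% at day 55 and 29.7% at day 70. The day 21 array thus stood well above the others, with day 35 next and day 70 lowest. The differences from the control were 1.23 at day 21 (SD from spots 0.078), 0.40 at day 35 (SD 0.071), -0.08 at day 45, 0.19 at day 55 and -0.24 at day 70. Over all genes 2.58% stood as far above the control at day 21. On the same slide, day 21 exceeded day 35 by 0.83. The range over the 6 arrays, 1.47, was reached or passed by 4.45% of the 12595 genes that were well above background on every array, whose median range was 0.39.

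Microglial markers moved with Prkcd at day 21. All 10 genes of a microglial list were above the control there, 6 of them at least 2-fold, with a median of 1.25. At the other 4 days the median of the list lay between -0.06 and 0.03. The summed level of the 10 genes was 4060% of the 75th percentile at day 21 and 1650 to 1908% on the other 5 arrays. Cd68, a lysosomal protein gene of phagocytes, was higher by 3.93, the lipid-sensing receptor gene Trem2 by 2.53, the leukocyte phosphatase gene Ptprc by 2.25 and the integrin gene Itgam by 1.32. At day 35, where Prkcd stood at 0.40, these 4 stood between -0.27 and 0.04, but the other probe of Itgam stood at 0.42. The part of these cells in the Prkcd signal was not tested.

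Other protein kinase C genes did not share the day 21 value of Prkcd. Of the 8 other family members on the array, 2 were above and 6 below the control at day 21, beside 39.7% of all genes above it. Their median was -0.24 and none was 2-fold away. Prkcq, a form known from T cells and muscle, stood at 0.32 at day 21, whereas Prkce stood at -0.38 and Prkcz at -0.32. The genes whose pattern over the 6 arrays was most like that of Prkcd were Serpinh1, a collagen chaperone gene (Pearson r 0.99, Spearman 1), Fat1, an atypical cadherin gene (0.99 and 0.94), and Zfp385a, a zinc-finger gene (0.99 and 1). All 3, picked for this likeness, were highest at day 21 and lowest at day 70, as Prkcd was. Over 6 points that share libraries, 47 of 12594 genes (0.373%) reached an r of 0.95.

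Zic1 was read from a single spot of low signal. Its level was 4.81% of the 75th percentile on the control array, 9.08% at day 21, 10.5% at day 35, 5.07% at day 45, 10.2% at day 55 and 6.01% at day 70. Days 21, 35 and 55 were high and the control, day 45 and day 70 low. The differences from the control were 0.92 at day 21, 1.12 at day 35, 0.08 at day 45, 1.08 at day 55 and 0.32 at day 70, each with an SD of 0.16 borrowed from repeated probes of like signal. Over all genes 0.352% stood as far above the control at day 35 and 0.590% at day 55. Among the 2653 probes within 0.5 log2 units of its mean level, these shares were 0.264% and 0.339%.

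The day 55 value was nearly as large within its own slide. Zic1 at day 55 exceeded day 45 by 1.00, a 2-fold difference that 0.887% of genes reached, and it exceeded day 70 by 0.76. Both values depended on the background correction and on the baseline. With normexp correction the differences were 0.66 at day 35 and 0.70 at day 55, and against the mean of the other 5 arrays they were 0.64 and 0.59, so that no 2-fold call was left in either setting. Quantile normalization gave 1.04, 1.33, 0.53, 1.36 and 0.70 at the 5 days, which puts days 45 and 70 between the control and the other 3.

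Other Zic genes gave a mixed picture. Zic4, the neighbour of Zic1 in the genome, was measured by its own spot and stood at 0.43, 1.15, 0.11, 0.55 and 0.12 at days 21, 35, 45, 55 and 70. Its 2-fold difference at day 35 falls on the same array as that of Zic1, and normexp correction lowered it to 0.75, as it did that of Zic1. Zic2, a family member known from the septum and from progenitors, stood at 0.87 at day 21 and 0.16 at day 35, and then at -0.55 to -0.63 at the later days. Under quantile normalization Zic2 stood between -0.19 and -0.38 on those days. Zic5 stood between -0.33 and 0.54. Of the 4 other Zic genes, 3 were compared at day 21 and all 3 were above the control, as at day 35, although Zic5 at day 21 stood at -0.03 in the deposited value table.

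Cells of the meninges also express Zic genes, and the choroid plexus lies against the hippocampus. All 10 measured meningeal markers were above the control at day 21, 7 of them 2-fold, with a median of 1.45, but their medians at days 35 and 55 were 0.04 and -0.03, the latter 0.05 to 0.19 with normexp correction, quantile normalization or the deposited value table. Their summed level, over the 9 genes measured on every array, was 901% at day 21 and 282 to 315% on the other 5 arrays. Choroid plexus markers had medians of 1.35 at day 21, 0.63 at day 35, -0.10 at day 45, -0.03 at day 55 and 1.01 at day 70, with the sign at day 55 turned (0.06 to 0.15) by normexp correction, quantile normalization and the deposited value table. The homeobox gene Otx2 stood at 2.02, 1.65, -0.04, 1.38 and 1.31 at the 5 days and was thus high at day 55 too. Of the 8 choroid plexus markers compared at day 55, 3 stood above and 4 below the control. Otx2 was the only 1 of them 2-fold higher, and 1 other was 2-fold lower. The transthyretin gene Ttr was at least 17.6-fold higher at day 21, a bound since the spot was saturated, and stood at -0.05 at day 55. The part of these tissues in the Zic1 signal was not tested.

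**Figure D2:**
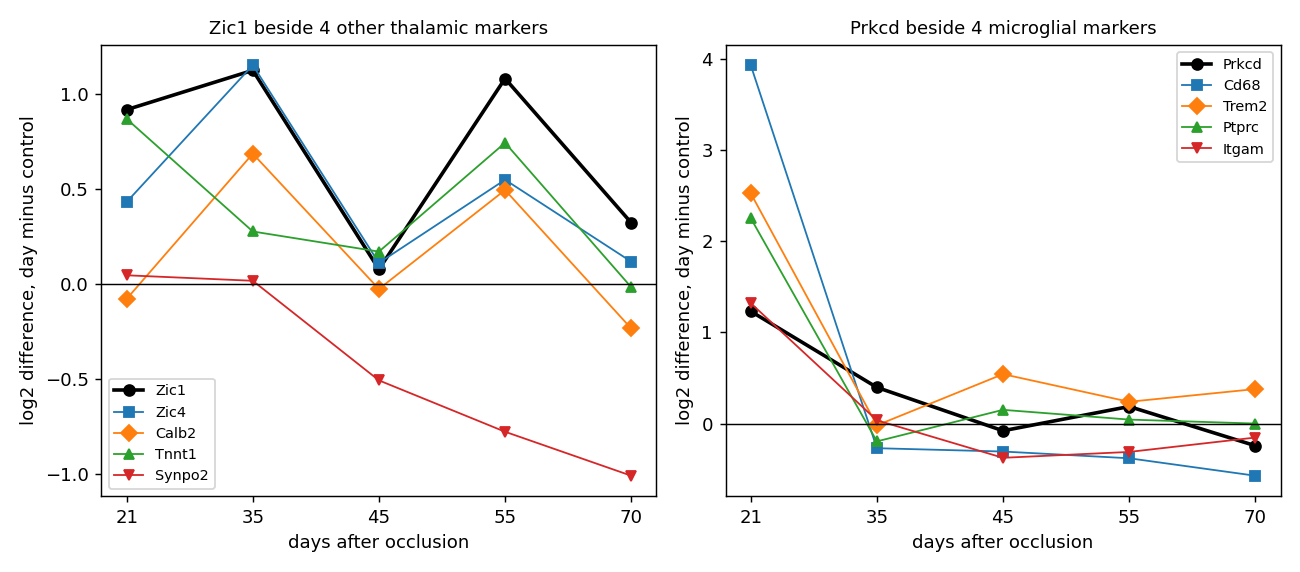
Difference from the control array (vertical axis, log2 units) against days after occlusion (horizontal axis) for Zic1 with 4 other thalamic markers at left and for Prkcd with 4 microglial markers at right, each point 1 array. Zic1 and Zic4 both exceed 1 at day 35, while Synpo2 goes to -1.01 at day 70, and the microglial genes share the day 21 peak with Prkcd.

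Tcf7l2 and Lef1 encode the paired HMG-box factors through which Wnt signals reach the genome, and Tcf7l2 is also made by maturing oligodendrocytes. The Tcf7l2 level was 34.0% on the control array, 47.7% at day 21, 34.1% at day 35, 32.7% at day 45, 35.7% at day 55 and 32.4% at day 70. Only day 21 stood out, by 0.49 above the control (SD 0.085 borrowed from repeated probes) and by 0.49 above day 35 on the same slide. Over all genes 9.45% stood as far above the control at day 21. All 12 markers of the oligodendrocyte lineage were above the control at day 21 as well, with a median of 0.24 and none 2-fold, and the myelin gene Mal stood at 0.74. Their part in the Tcf7l2 value was not tested. A further probe, 10057 bases before that of Tcf7l2 and listed in the files only as a partial transcript like that gene, was well above background on 3 of the 6 arrays and was not counted as a member.

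The brightest probe of Lef1 varied little, at 12.6% on the control array, 14.9% at day 21, 13.0% at day 35, 11.7% at day 45, 14.0% at day 55 and 11.5% at day 70. Its differences from the control ran from -0.13 to 0.25. The other probes disagreed with it. A_64_P166158 stood below the control by 0.74 at day 21, 0.24 at day 35, 0.77 at day 45, 0.78 at day 55 and 0.81 at day 70. A_64_P052007 stood at -0.13 and -0.09 at days 21 and 35 and at -0.71, -0.59 and -0.87 at days 45, 55 and 70. On the days of the other slide, probes of like low signal shifted down as a group. Among those near the level of A_64_P052007 the median was -0.52, -0.24 and -0.40 at days 45, 55 and 70. Quantile normalization gave -0.12, -0.25 and -0.34 for A_64_P052007 itself on these days. For A_64_P166158 it gave -0.76, -0.44, -0.59 and -0.52 at days 21, 45, 55 and 70. Normexp correction gave -0.40 for A_64_P166158 at day 21. Probes near its level had a median of -0.09 at day 21, on the slide of the control. At days 45, 55 and 70 their medians were -0.29, -0.14 and -0.22, less far down than A_64_P166158 itself. No direction can be given for Lef1 as a gene.

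Other genes of nuclear Wnt signalling did not rise as a group at day 21. Of 15 genes, 5 were above and 10 below the control, with a median of -0.02, beside 39.7% of all genes above it. At day 45 the split was 2 above and 13 below, beside 37.3% of all genes above. The median there was -0.39, which quantile normalization, normexp correction and the deposited value table moved to between -0.18 and -0.10. Tcf7l1, the repressor of the same family, stood at 0.59 at day 21 and at -0.52 at day 45, with its other probe at 0.29 and -0.09. Axin2, a target gene that feeds back on the pathway, stood below the control at all 5 days, from -0.17 to -0.53.

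Ramp3 encodes an accessory protein that turns the calcitonin-receptor-like receptor into a receptor for adrenomedullin. Its level was 7.79% on the control array, 6.56% at day 21, 8.70% at day 35, 8.49% at day 45, 5.30% at day 55 and 7.19% at day 70. It was thus lowest at day 55, where Zic1 was high, and second lowest at day 21, where Prkcd and Tcf7l2 were highest. The day 55 value stood below the control by 0.56 (SD from spots 0.12), below day 45 by 0.68 and below day 70 by 0.44, while normexp correction left it 0.28 below the control. Over all genes 11.8% stood as far below the control at day 55. Of 8 related and partner genes, 6 were compared at day 21, with 4 above and 2 below the control and a median of 0.10. Over all genes 39.7% stood above it. At days 35 and 45, 2 of them stood above and 4 below. The peptide gene Adm was higher by 1.37 at day 21 and by 0.28 to 0.45 later. The receptor gene Calcrl, named after its values were seen, was higher by 1.10 at day 21 and by 0.87 over day 35. These 2 alone were 2-fold higher at day 21, beside 3.58% of all genes. The sister gene Ramp2 stayed between -0.18 and 0.12.

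**Figure D3:**
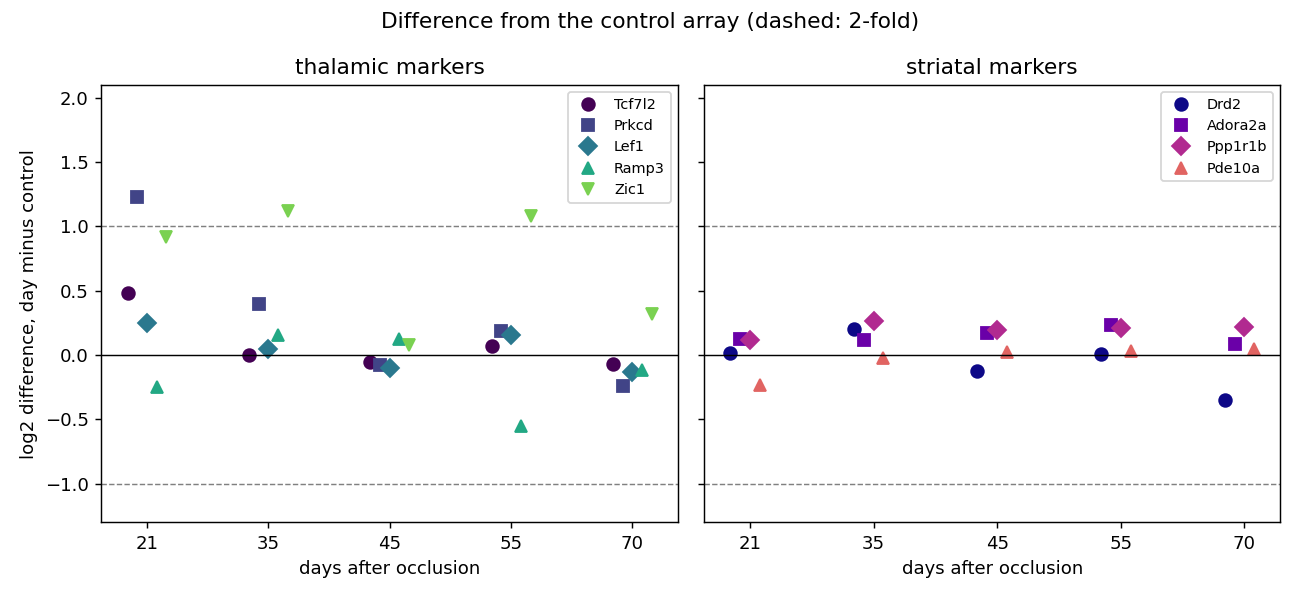
Difference from the control array (vertical axis, log2 units, day minus control) at each day after occlusion (horizontal axis) for the 5 thalamic markers at left and the 4 striatal markers at right, 1 point per gene and array at its brightest probe, dashed lines at 2-fold. Only Prkcd at day 21 and Zic1 at days 35 and 55 pass a dashed line, and the striatal points lie between -0.35 and 0.26.

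The striatal markers stayed close to the control. Drd2, the D2 dopamine receptor gene, had levels of 12.1% on the control array, 12.3% at day 21, 13.9% at day 35, 11.1% at day 45, 12.2% at day 55 and 9.51% at day 70 at its brightest probe. Day 70 was the lowest, at -0.35 (SD from spots 0.077), and day 35 the highest, at 0.20. Quantile normalization moved the day 70 value to -0.11. Over all genes 20.4% stood as far below the control at day 70. The dimmer probe gave 4.34% on the control array, 3.13% at day 21, 4.17% at day 35, 1.52% at day 45, 2.34% at day 55 and 1.60% at day 70. It was at least 2.85-fold below the control at day 45, where it was not well above background, and 2.71-fold below it at day 70. Its spots spread widely, with an SD of 0.26 to 0.53 for a difference, and 26.2% of probes of like signal were 2-fold lower at day 45 and 25.3% at day 70. Neither day was 2-fold lower with normexp correction (-0.54 and -0.56) or quantile normalization (-0.87 and -0.89).

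Genes most like Drd2 over the 6 arrays were Akap12, a kinase-anchoring protein gene (Pearson r 0.97, Spearman 0.77), B3gnt2, a glycosyltransferase gene, and Bcl2l10, a BCL2 family gene (0.95 and 0.94 each). Only 4 of 12594 genes (0.0318%) reached an r of 0.95 with it. All 3, picked for this likeness, were lowest at day 70 and highest at day 35, as Drd2 was.

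Adora2a, whose receptor raises cyclic AMP against Drd2 in the same striatal neurons, had the smallest range of the 9 members, but not under quantile normalization. Its level was 6.14% on the control array, 6.69% at day 21, 6.68% at day 35, 6.92% at day 45, 7.21% at day 55 and 6.51% at day 70. The control was lowest, but all 5 differences lay between 0.08 and 0.23, with an SD from spots of 0.12 to 0.17. Quantile normalization gave 0.20 to 0.57. Its range of 0.23 was reached or passed by 78.3% of genes. Among the other receptors of dopamine and adenosine, Drd5 stood below the control at all 5 days, at -0.58, -0.92, -1.09, -1.27 and -1.49. Over all genes 5.86%, 4.96% and 6.84% were 2-fold lower at days 45, 55 and 70. Drd5 was not 2-fold lower at day 45 with quantile normalization, normexp correction or the deposited value table, nor at day 55 with normexp correction. Adora1, the main adenosine receptor gene of the hippocampus, stayed between -0.14 and 0.08.

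Ppp1r1b and Pde10a had bright probes that moved little. Ppp1r1b had levels of 147% on the control array, 159% at day 21, 176% at day 35, 168% at day 45, 169.5% at day 55 and 170.2% at day 70. Its 5 differences lay between 0.12 and 0.26, with an SD of 0.070 borrowed from repeated probes, but its other probe, 2206 bases away, lay between -0.28 and -0.09 throughout. The 2 probes thus had opposite signs at every day, except that quantile normalization put the dimmer one at 0.02 at day 45 and 0.09 at day 70. No direction can be given for the gene.

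Pde10a had levels of 339% on the control array, 289% at day 21, 334% at day 35, 345% at day 45, 347% at day 55 and 350.2% at day 70. The other 5 arrays lay close together and day 21 was lower, by 0.23 (SD from spots 0.083), and its other probe, 707 bases away, was lower by 0.36. That is a difference both probes show, and it is small beside other genes, since 26.2% of genes stood as far below the control at day 21. Of 11 hippocampal neuron markers, 3 stood above the control at day 21, beside 39.7% of all genes, and their median was -0.37 (-0.18 with normexp correction). Among them Wfs1, a CA1 marker, stood at -0.59.

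**Figure D4:**
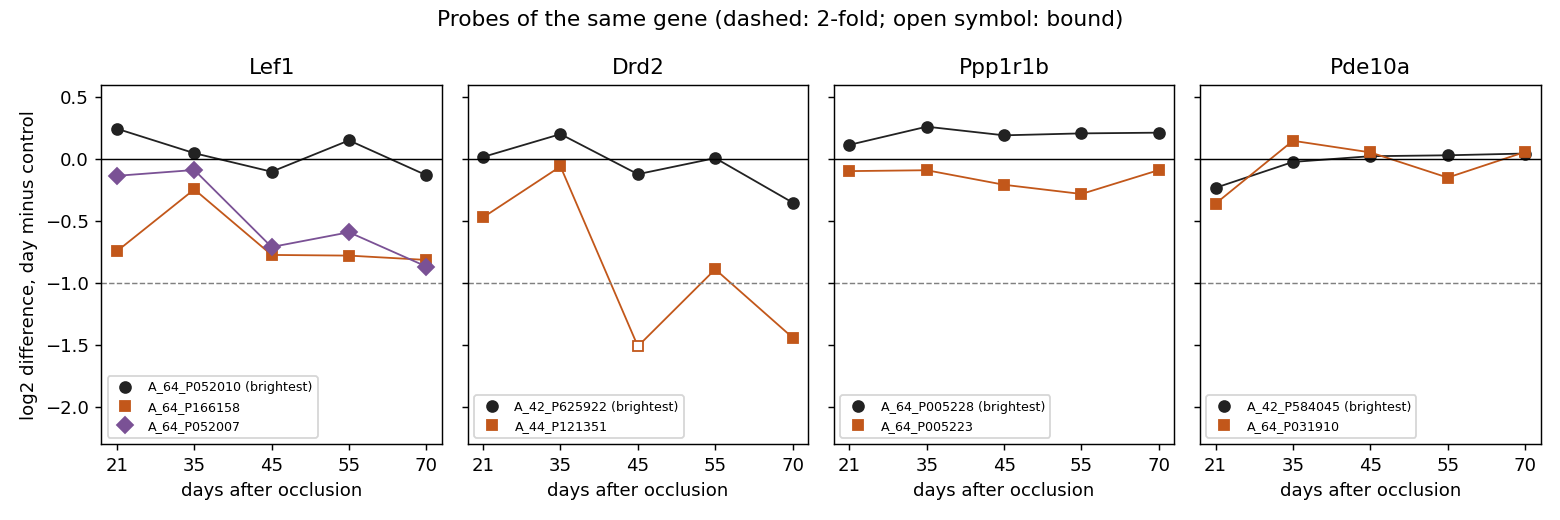
Difference from the control array (vertical axis, log2 units) against days after occlusion (horizontal axis) for the 4 members with several probes, each line 1 probe, the open symbol a bound and the dashed line 2-fold lower. The probes of Pde10a are both lowest at day 21 and have opposite signs at days 35 and 55, those of Ppp1r1b lie on opposite sides of 0, and the dimmer Drd2 and Lef1 probes drop by up to 1.51 and 0.87 at days 45 to 70 while the brightest stay within 0.35.

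As groups, the thalamic and striatal markers gave different summaries. The thalamic median was 0.49 at day 21 with 4 of 5 above the control, 0.16 at day 35 with 5 of 5 (Tcf7l2 by 0.00 only, and 3 of 5 with normexp correction), -0.06 at day 45 with 2 of 5, 0.15 at day 55 with 4 of 5 and -0.11 at day 70 with 1 of 5. Its sign flips at days 45 and 70 under quantile normalization and under the deposited value table, and at day 55 against the mean of the other 5 arrays. The striatal median was 0.07, 0.16, 0.10, 0.12 and 0.07 at the 5 days, with 3, 3, 3, 4 and 3 of 4 above the control, and it falls below 0 at days 21 and 55 when all probes of a gene are averaged, and at day 21 against the mean of the other 5 arrays. Over all genes 39.7, 41.9, 37.3, 41.4 and 41.9% stood above the control at the 5 days. The member counts take Lef1 and Ppp1r1b at their brightest probes, although no direction could be given for either gene. All comparisons with the control share that 1 array. At the brightest probe of each, 3 thalamic markers (Tcf7l2, Prkcd and Lef1) were highest at day 21 and lowest at day 70. The other 2 were highest at day 35. Tcf7l2 at day 70 stood only 0.01 below day 45, and both other Lef1 probes were highest on the control array. Quantile normalization put Lef1 (0.31) and Zic1 (1.36) highest at day 55 and Ramp3 (0.46) at day 45. It made the control the lowest array for Tcf7l2 and Lef1, so only Prkcd kept both places. No striatal marker was highest at day 21.

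Further markers of each neighbour were read in the same way. Of 12 other thalamic genes, 10 were well above background on every array, and Gbx2 and Shox2, transcription factor genes of the developing thalamus, were so on none. At day 21, 4 of these 10 stood above and 6 below the control, beside 39.7% of all genes above it. The median of the 10 lay between -0.09 and 0.02 at the 5 days, and its sign changed with the scaling at every day. Their summed level ran from 493% at day 45 to 560.1% at day 35 and was 503% on the control array. Tnnt1, a troponin gene expressed in thalamic neurons, stood at 0.87 at day 21 and 0.74 at day 55, with 0.84 and 0.80 at its other probe. It stood at 0.27 at day 35. Zic1 was high on each of these days. Calb2, the calretinin gene of midline thalamus and of interneurons, stood at 0.68 at day 35 and 0.49 at day 55 but at -0.08 at day 21. Synpo2, an actin-binding protein gene, stood at 0.04, 0.02, -0.51, -0.78 and -1.01, but at -0.49 at day 70 under quantile normalization.

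The habenula lies beside the medial thalamus. Its defining genes Pou4f1 and Gpr151 were not well above background on any array, and of the 5 habenular genes on the array only Gng8 and Chrnb4 were well above background on all 6. Gng8 stayed between -0.09 and 0.19, and Chrnb4 between -0.43 and -0.21. Chrna3, a nicotinic receptor subunit gene named after its values were seen, was well above background at day 35 only, from 1 spot, and was at least 7.25-fold above the control there, on the array where Zic1 was highest.

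A wider striatal list included genes that define medium spiny neurons. Drd1, the D1 receptor gene of the direct pathway, Gpr6, a receptor gene of the indirect pathway, and Isl1, a factor of striatal development, were not well above background on any array. Of 17 other striatal genes, 12 were well above background on every array, and many of these are also expressed in the hippocampus, such as Foxp1, Arpp21 and Adcy5. The median of those compared was -0.15, 0.03, -0.21, -0.05 and -0.19 at the 5 days, and none was 2-fold higher. At day 45 Syndig1l alone was 2-fold lower, beside 5.86% of all genes. At day 70, 2 of the list were, Syndig1l among them, beside 6.84%. With normexp correction or the deposited value table none was 2-fold lower on either day, and quantile normalization left 0 at day 45 and 1 at day 70. Normexp correction put the median at -0.03 at day 35, and quantile normalization put it at 0.02 and 0.09 at days 45 and 55. Syndig1l stood below the control throughout, at -0.67, -0.51, -1.09, -0.87 and -1.26, and Tac1, the substance P precursor gene, at -0.32 to -0.61. Pde1b stood at -0.59 at day 21 and -0.53 at day 55.

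Genes of striatal cyclic AMP signalling beside the members differed little from the control at day 21. Of 13 genes, 1 stood above it (3 with normexp correction and 2 in the deposited value table), beside 39.7% of all genes. Their median was -0.20 and none was 2-fold away. All 13 were lower at day 21 than at day 35 on the same slide, whereas 45.9% of all genes were higher. At day 35, 11 of 13 stood above the control, beside 41.9% of all genes, with a median of 0.05. Under quantile normalization 8 of 13 did, and 9 with normexp correction or the deposited value table. Gnal, the olfactory G-protein gene of striatal neurons, stood at 0.21 at day 21, while Rgs9, which ends G-protein signals, stood at -0.36.

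**Figure D5:**
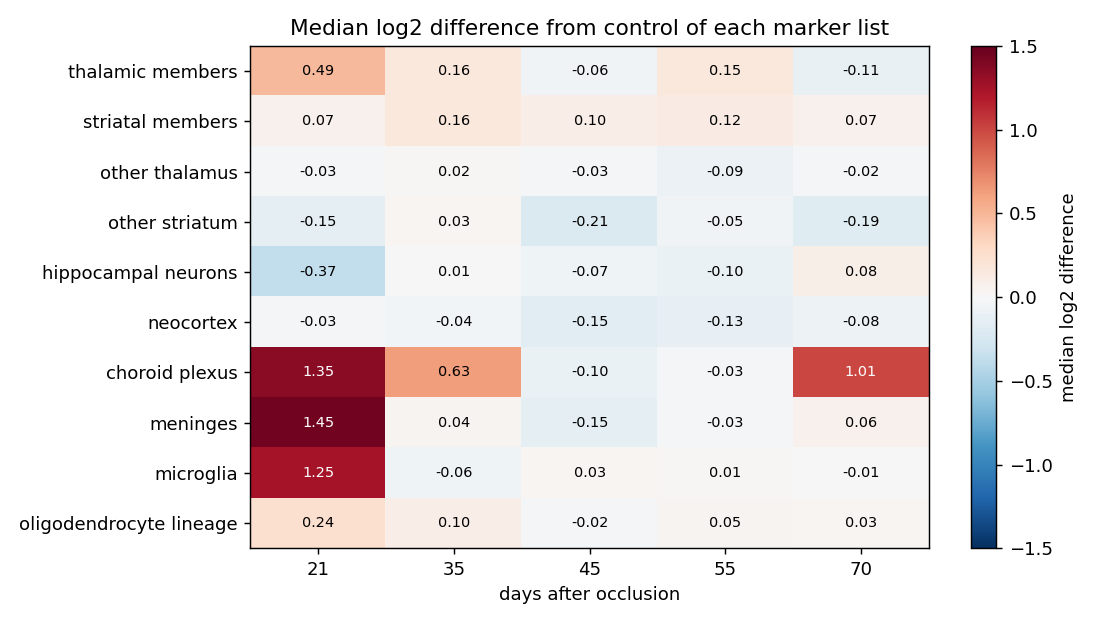
Median log2 difference from the control array of each marker list (rows) at each day after occlusion (columns), printed in each cell and coloured from blue (below) to red (above the control). The thalamic and striatal members range from -0.11 to 0.49, beside 1.25 to 1.45 for microglia, meninges and choroid plexus at day 21.

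Hippocampal neuron markers were present on all 6 arrays, with 9 to 11 of the 11 genes on the array well above background. The CA1 marker Fibcd1 stood at 1426% of the 75th percentile on the control array and at 1160 to 1625% on the others. The summed level of the 9 measured on every array, to which Fibcd1 gave the most, was lowest at day 21, at 2541%, and highest at day 70, at 3506%. Lct and Tdo2 were 2-fold lower than the control at day 55, beside 4.96% of all genes. At day 70 Lct, Tdo2 and Spink8 were 2-fold lower, beside 6.84%. Tdo2 on both days and Spink8 at day 70 were not well above background, so their folds are bounds. Both were named after their values were seen. With quantile normalization, normexp correction or the deposited value table, none of the list was 2-fold lower at day 55 and only 1 gene was at day 70. Markers of neocortex, which overlies the hippocampus, had medians between -0.15 and -0.03.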

How the data were processed

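The 6 scanner files, 1 per array, came from Agilent Feature Extraction 10.7.3.1, per the file headers, on 1-colour design 028282 with probe positions in rn4. The intensity in the deposited files is a processed signal, already background-subtracted, with flags for signal well above background and for outlier spots. The labels name Cy5, whereas the authors deposited green-channel columns, which were used. The authors' table of intensity values for 41507 spots, whose making is not stated in the sources used here, served as an alternative. Per the labels' protocols, RNA was extracted with TriPure reagent, pooled and amplified linearly.

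Outlier spots (346 to 470 per array) were left out, log2 signals were scaled by each array's 75th percentile, and spots of a probe were averaged. Of 30367 probes, 17328 were named by accession, 2635 by symbol, 718 by synonym and 417 by gene identifier through a RefSeq table, 183 kept the name in the file and 9086 stayed unnamed. The brightest probe stands for its gene, and other probes of members are given beside it. A gene was compared where well above background on at least 1 of both arrays, with the lowest signal well above background as a floor, which makes the fold a bound. The share of spots well above background, 74.5 to 80.2%, and the number of arrays limit the precision. The median SD between spots was 0.0507 to 0.0724.

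The members and the 16 supporting lists were chosen with earlier results of these data known. Comparisons between days on a slide were added after the design. Beside the members, at most 4 genes per list were named, those of largest range over the arrays among genes well above background on all 6, and 3 genes most like Prkcd and Drd2, the thalamic and the striatal member of largest range. Genes not well above background on any array, Fibcd1, Adcy5, Arpp21, Foxp1, Chrna3, Calcrl, Tdo2 and Spink8 were named outside that rule. Some genes of the lists are not reported here. The difference calculation was tested on simulated data. Python 3.11.15, numpy 2.4.6, pandas 2.3.3, R 4.3.3 and limma 3.58.1 (normexp with an offset of 50) were used. Quantile normalization was done in Python on the probe means.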

Additional observations from a re-analysis of the deposited data

How the results depend on the processing

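With 1 array per group, spot error is the only error measured, and dim probes such as that of Zic1 depend most on the background correction. Of 135 values for the member counts and medians under 9 alternatives, 108 moved by less than the spot SD or 1.5 times. Leaving out the bound for dim probes, or comparing only genes well above background on both arrays, could not move any of these values. All 9 members were well above background on every array. Quantile normalization gave 2 members 2-fold from the control at day 21, thalamic medians of 0.28, 0.14, 0.25 and 0.081 at days 35, 45, 55 and 70, and a striatal median of 0.26 at day 35. Normexp correction gave 0 members at days 35 and 55 and a thalamic median of 0.39 at day 21. The deposited value table gave thalamic medians of 0.40, 0.28, 0.034 and 0.024 at days 21, 35, 45 and 70 and striatal medians of 0.20 and 0.22 at days 45 and 55. Averaging all probes of a gene gave striatal medians of -0.11, 0.080 and -0.047 at days 21, 35 and 55 and a thalamic median of 0.070 at day 55. Against the mean of the other 5 arrays there were 0 members at days 35 and 55, thalamic medians of 0.40, -0.16, -0.0025 and -0.20 at days 21, 45, 55 and 70 and striatal medians of -0.028 and 0.060 at days 21 and 35. The cause of these shifts was not tested. Prkcd at day 21 was 2-fold higher in all 9 alternatives, from 1.13 to 1.27, and Zic1 in 7 of 9 at day 35 (0.64 to 1.33) and at day 55 (0.59 to 1.36). For Prkcd and Zic1, averaging probes could not change a call either, since each has 1 probe. These counts therefore include settings that could not change a call. Quantile normalization also moved the split of all genes, from 82 higher and 821 lower to 220 and 286 at day 45, from 92 and 707 to 213 and 404 at day 55, and from 95 and 967 to 265 and 379 at day 70. No paired analysis was possible because each group has 1 array.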
